A study of Mus musculus with 2 samples.

Results

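The killer lectin receptor genes of mouse chromosome 6 were taken as every protein-coding gene of the chromosome whose symbol starts with Klr or Clec2, together with Cd69. The rule gave 33 of the 21701 protein-coding genes used as background. Of these, 30 formed 1 contiguous complex of 2.64 Mb, which ran from Klrb1a to Klra2 (chr6:128609227-131247362, mm10). Klrg2 and Clec2l lay together far from it (chr6:38625693-38680864), and Klrg1 stood alone (chr6:122270596-122282882). The assay was DNase-seq, which maps accessible DNA by sequencing the fragment ends that DNase I leaves in isolated nuclei. Thymus tissue came from females of the hybrid B6CASTF1/J, 14 days old. This hybrid has 1 parent of the strain C57BL/6J and 1 of CAST/EiJ. The 2 samples were taken as 2 animals because their animal numbers differ. They carry the same donor identifier, so this is not certain. There was 1 group and no control, treated or mutant group.

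The encoded proteins are C-type lectin-like molecules of the cell surface. Most Klr proteins are receptors of natural killer (NK) cells and of some T cells. Many of these receptors report whether a neighbouring cell carries its usual surface molecules. The Nkrp1 receptors (Klrb genes) bind Clr proteins, which are the products of the Clec2 genes that lie among them. CD94 (Klrd1) pairs with NKG2 proteins (Klrc genes) to read the class Ib molecule Qa-1, and NKG2D (Klrk1) binds stress-induced ligands. The Ly49 receptors (Klra genes) read classical MHC class I, and the number of Ly49 genes differs between mouse strains. CD69 is an early activation marker that thymocytes display after their T cell receptor has been engaged. The thymus holds mostly thymocytes, with few NK cells.

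The promoters of Clec2i, Clec2d and Cd69 are shown first, because they held the 3 strongest promoter peaks among the 33 genes. Each sequence is the peak of replicate 1 up to 30 bases past the outermost transcription start site (TSS), in the direction of the gene. Capitals mark bases inside footprints of both replicates, footprints being short stretches within open DNA that the authors called as protected from cutting. Clec2i is chr6:128887481-128887617 on the plus strand, Clec2d is chr6:129180441-129180644 on the plus strand and Cd69 is chr6:129275407-129275520 on the minus strand, all from the GRCm38.p6 sequence.
Clec2i: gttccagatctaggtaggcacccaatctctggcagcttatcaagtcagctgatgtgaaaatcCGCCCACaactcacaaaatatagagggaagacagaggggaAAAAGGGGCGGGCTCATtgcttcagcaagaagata
Clec2d: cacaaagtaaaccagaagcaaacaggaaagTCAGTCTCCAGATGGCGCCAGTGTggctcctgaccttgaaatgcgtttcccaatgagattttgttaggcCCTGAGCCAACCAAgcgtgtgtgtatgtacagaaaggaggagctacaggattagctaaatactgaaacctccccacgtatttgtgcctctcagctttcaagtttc
Cd69: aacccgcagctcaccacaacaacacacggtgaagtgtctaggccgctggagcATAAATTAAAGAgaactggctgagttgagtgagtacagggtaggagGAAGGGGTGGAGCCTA

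The Clec2i promoter held the letters GGGCGG, a core of SP and KLF factor motifs, at both of its shared footprints. One match lay on the minus strand (chr6:128887542-128887547, 5 of 6 bases inside footprints of both replicates) and the other on the plus strand at the TSS itself (chr6:128887588-128887593, 6 of 6 bases). In the Cd69 promoter the widest footprint ran from 129275384 to 129275425 in replicate 1 and from 129275386 to 129275422 in replicate 2. It lay between the 2 annotated TSSs of the gene, so only its upstream part is printed above. None of the 12 motifs searched fell inside the shared footprints of the Cd69 promoter.

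Next are the strongest peaks outside promoters. Of the peaks of the complex found in both replicates, the 10 strongest by mean percentile of strength within each replicate are numbered 1 to 10 here. The strength of a peak is the signal that the authors deposited with it. All 10 lay over 500 bp from any TSS of the 33 genes, 8 of them among the Nkrp1 and Clr genes and 2 near Cd69. Their sequences showed resemblances that were noticed by eye and then measured by local alignment of all 45 pairs, in both orientations. The sequences of peaks 1, 2 and 8, of the inverted pair 5 and 7, and of the Cd69 neighbours 3 and 10 follow, on the plus strand, with the same use of capitals. In order they are chr6:128803101-128803380, chr6:128764161-128764340, chr6:128760741-128760960, chr6:128838901-128839120, chr6:128760121-128760300, chr6:129237941-129238160 and chr6:129284501-129284700.
Peak 1: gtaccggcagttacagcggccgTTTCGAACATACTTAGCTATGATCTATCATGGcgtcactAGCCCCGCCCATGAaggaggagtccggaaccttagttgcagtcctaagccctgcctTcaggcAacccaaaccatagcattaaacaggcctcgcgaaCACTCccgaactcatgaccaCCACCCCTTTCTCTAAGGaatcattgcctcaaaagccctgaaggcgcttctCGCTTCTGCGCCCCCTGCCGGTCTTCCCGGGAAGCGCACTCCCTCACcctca
Peak 2: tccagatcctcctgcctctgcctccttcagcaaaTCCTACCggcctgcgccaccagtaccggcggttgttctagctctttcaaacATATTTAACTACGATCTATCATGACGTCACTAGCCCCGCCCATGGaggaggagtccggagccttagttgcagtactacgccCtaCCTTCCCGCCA
Peak 8: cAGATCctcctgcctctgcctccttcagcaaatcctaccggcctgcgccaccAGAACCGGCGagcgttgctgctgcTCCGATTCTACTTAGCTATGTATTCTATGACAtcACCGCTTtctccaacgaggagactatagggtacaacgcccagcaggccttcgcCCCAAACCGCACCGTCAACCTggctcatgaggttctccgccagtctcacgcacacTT
Peak 5: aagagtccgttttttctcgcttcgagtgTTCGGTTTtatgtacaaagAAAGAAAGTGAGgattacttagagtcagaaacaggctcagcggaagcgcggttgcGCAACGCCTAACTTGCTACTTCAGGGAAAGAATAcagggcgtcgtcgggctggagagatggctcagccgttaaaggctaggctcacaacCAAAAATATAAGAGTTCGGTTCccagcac
Peak 7: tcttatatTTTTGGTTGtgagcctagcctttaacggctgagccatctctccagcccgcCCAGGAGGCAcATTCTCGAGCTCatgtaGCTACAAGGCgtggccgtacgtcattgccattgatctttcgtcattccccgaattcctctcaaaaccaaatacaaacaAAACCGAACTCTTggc
Peak 3: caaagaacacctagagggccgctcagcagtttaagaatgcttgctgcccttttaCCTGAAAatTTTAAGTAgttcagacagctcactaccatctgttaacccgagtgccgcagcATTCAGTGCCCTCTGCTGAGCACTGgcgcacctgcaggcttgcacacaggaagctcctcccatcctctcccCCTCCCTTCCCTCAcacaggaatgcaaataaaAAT
Peak 10: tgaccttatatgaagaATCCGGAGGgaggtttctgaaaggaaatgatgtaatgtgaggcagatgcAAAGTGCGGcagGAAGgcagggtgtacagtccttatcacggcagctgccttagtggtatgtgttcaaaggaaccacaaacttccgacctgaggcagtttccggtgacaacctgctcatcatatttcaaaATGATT

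Peaks 1 and 2, the strongest of the complex, were near-copies of each other over part of their length. They aligned over 119 columns with 100 identical bases (84.0%), from 128803101 to 128803219 in peak 1 and from 128764216 to 128764334 in peak 2. The footprints sat on the same part of the copied stretch in both. In peak 1 replicate 1 had a footprint of 55 bases from 128803123, and replicate 2 had footprints of 32 bases from 128803123 and of 14 bases from 128803162. In peak 2 the footprints covered 53 bases from 128764241 in replicate 1 and 45 bases from 128764246 in replicate 2. Each held GGGCGG on the minus strand with 6 of 6 bases inside footprints of both replicates.

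Peak 8 resembled peak 2 over 113 columns (90 identical bases, 79.6%), and it resembled peak 1 over 45 columns (31 identical bases, 68.9%). Peaks 5 and 7 aligned in opposite orientations over 102 columns with 82 identical bases (80.4%). Peaks 4 and 9 shared 66 identical bases over 104 columns (63.5%), and none of the other pairs shared more than 39. The same alignment was not made for other peaks, and the part of interspersed repeats in these resemblances was not tested. Despite these resemblances, most 32-base words of these peaks occurred once in the genome: 94.8% in peak 1, 83.2% in peak 2, 76.7% in peak 5, 71.1% in peak 7 and 69.8% in peak 8. In peaks 3 and 10, near Cd69, every word was unique.

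Most of the 33 promoters were closed in both mice. A promoter was called open if both replicates had a peak no more than 500 bp from an annotated TSS of the gene. This held for 6 of 33 genes (18.2%), namely Klrg2, Clec2i, Clec2d, Cd69, Klrd1 and Klra1, against 58.6% of all protein-coding genes. Clec2l and Klra5 had a peak in replicate 2 only, and the other 25 had none in either. The authors' track of false discovery rates gave nearly the same count. It listed at least 1 base within 500 bp of a TSS in both replicates for 7 of the 33 genes (21.2%), Clec2l being the seventh, against 59.5% of all genes. The 25 genes without a peak had no listed base in either replicate. In bulk tissue, fewer cells with an open site and a site less open in each cell cannot be told apart.

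Promoter composition set these genes apart from most others, and the comparison shifts with it. The median CpG ratio (observed over expected CpG) within 500 bp of the TSS was 0.175 in the 33 genes and 0.576 in all genes, and the median GC content was 38.3% and 55.3%. A ratio under 0.5 was found in 31 of the 33 genes. Among these, 5 of 31 were open (16.1%), against 21.1% of all genes with such promoters. That is much nearer to the background than the first comparison. Klrg2 and Clec2l were the exceptions, with CpG ratios of 0.753 and 0.756.

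The open promoters fell into a strong and a weak set. Clec2i, which encodes a Clr ligand of the receptor NKR-P1F, had a peak strength of 4.40 in replicate 1 and 1.78 in replicate 2, at the 88.2 and 79.7 percentiles of all peaks of the same replicate. Clec2d encodes Clr-b, the ligand of the inhibitory receptor NKR-P1B. Its promoter peak had strengths of 4.005 and 2.14, at percentiles 87.1 and 83.4. Cd69 had strengths of 2.84 and 1.74, at percentiles 82.6 and 79.2. These 3 were also the only ones of the 33 in the authors' stricter peak list in both replicates.

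The weak set lay near the bottom of each peak list. Klrd1, the CD94 subunit shared by the NKG2 heterodimers, had strengths of 0.291 and 0.253, at percentiles 9.67 and 11.9. Klrg2 had 0.296 and 0.334, at percentiles 10.1 and 22.1, and its peak lay 353 and 293 bp from the TSS. Klra1, which encodes Ly49A, had 0.234 and 0.184, at percentiles 5.09 and 4.81. The peaks found in replicate 2 only were as weak, at 0.305 for Clec2l (percentile 18.6) and 0.207 for Klra5 (percentile 6.77). Even the strong set lay below the median open promoter of the genome. That median, over all genes open in both, was at percentile 91.4 in replicate 1 and 92.2 in replicate 2. It rests mostly on promoters of higher CpG ratio. Of the 12721 open genes, 2033 had a ratio under 0.5, as Clec2i, Clec2d and Cd69 did, and no median within that class was taken.

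**Figure D1:**
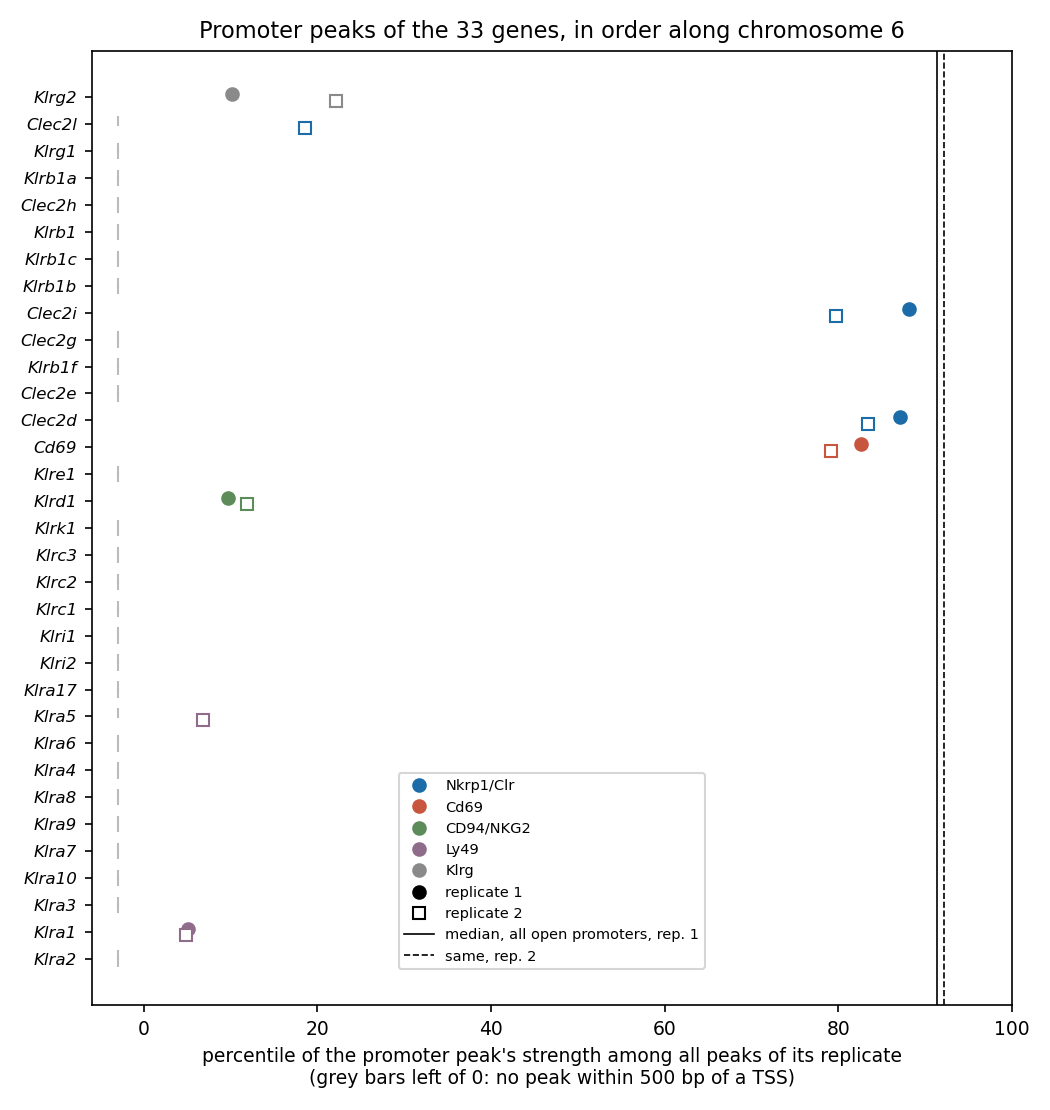
Percentile of the promoter peak's strength among all peaks of its replicate (x axis) for each of the 33 genes in chromosome order (y axis), with filled circles for replicate 1, open squares for replicate 2 and colours for gene families; grey bars left of 0 mark genes with no promoter peak in that replicate, and vertical lines mark the median of all open promoters. Clec2i, Clec2d and Cd69 lie between 79.2 and 88.2, every other promoter peak lies at 22.1 or below, and 25 genes have none.

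Among the Nkrp1 receptor genes and the genes of their Clr ligands, the open promoters were those of Clec2i and Clec2d. None of the 5 receptor genes Klrb1a, Klrb1, Klrb1c, Klrb1b and Klrb1f had a promoter peak or a listed base in either replicate. Klrb1c encodes the NK1.1 antigen. Of the 5 Clec2 genes that lie among them, Clec2i and Clec2d were open in both replicates and Clec2h, Clec2g and Clec2e in neither. All 10 of these genes had a CpG ratio under 0.5, a class in which 21.1% of genes were open, and the difference between receptors and ligands was not tested. Clec2l, which lies far from them, had a peak in replicate 2 only. With a window of 2000 bp in place of 500 bp, Clec2g was counted as well.

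Among the 8 CD94 and NKG2 genes only Klrd1 had a promoter peak. Klrk1 (NKG2D), Klre1, the 3 Klrc genes, Klri1 and Klri2 had none. A weak peak lay 1488 bp upstream of Klrc1, which encodes the inhibitory subunit NKG2A, in both replicates (strengths 0.296 and 0.265). Klrc2 and Klrc3 share most of their promoter sequence with another place in the genome, since 21.9% and 22.0% of their 32-base words were unique. Klrg1, a marker of mature effector cells, had no promoter peak, although all of its promoter words were unique.

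Of the 11 Ly49 genes, Klra1 was open in both replicates, Klra5 in replicate 2, and the other 9 in neither. Klra8 and Klra9 had 43.1% and 48.9% of promoter words unique, and these were the only Ly49 genes under 50%. Over the 9 closed Ly49 genes, 5 had more than 75% of words unique. Identity between Ly49 promoters (250 bases before to 50 after the TSS, 55 pairs) ran from 48.8% to 86.1% with a median of 54.1%, and Klra4 and Klra8 were the closest pair. The peak of Klra1 aligned to the Klra5 promoter over 97 columns with 80 identical bases (82.5%), between 14 bases before and 78 after the Klra5 TSS. The replicate 2 peak of Klra5 lay outside that stretch, 71 bp upstream of the TSS. The mapping of CAST reads is not stated in the sources at hand, and the part of sequence copies in the closed state was not tested. Of the 4 genes with fewer than 50% unique promoter words none was open, against 10.4% of such genes in the background. Of the 27 genes with a low CpG ratio and more unique words 5 were open, against 23.3%.

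Peaks between the genes were spread very unevenly. The complex as a whole held 112 peaks in replicate 1 and 113 in replicate 2, or 42.5 and 42.8 per Mb, and chromosomes 1 to 19 held 38.3 and 42.6 per Mb. The segment of Nkrp1 and Clr genes (chr6:128609227-129186534) held 66 and 57 peaks, or 114 and 98.7 per Mb. Cd69 with 25 kb to each side held 8 and 12, or 138 and 206 per Mb. The CD94 and NKG2 segment (chr6:129577905-129740484) had 4 peaks in each replicate, or 24.6 per Mb in each. The Ly49 segment (chr6:129831154-131247362) had 6 and 9, or 4.24 and 6.35 per Mb, and its strongest peak reached only 0.296 in replicate 1 and 0.282 in replicate 2. Much of this segment is the stretch between Klra1 and Klra2, which holds none of the genes. From Klra17 to Klra1, where 10 of the 11 Ly49 genes lie, there was 1 peak in replicate 1 and 7 in replicate 2, or 1.8 and 12.6 per Mb. The promoter peak of Klra1 is not in these counts, since its midpoint lay just past the end of this window in both replicates.

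Footprints followed the same order. They numbered 335 and 351 in the complex, or 127 and 133 per Mb, and 110 and 126 per Mb over chromosomes 1 to 19. The Nkrp1 and Clr segment had 362 and 357 per Mb and the Ly49 segment 6.35 and 4.94. The share of 32-base words that occur once in the genome was 71.9% in the Nkrp1 and Clr segment, 75.6% in the CD94 and NKG2 segment and 55.5% in the Ly49 segment, against 81.0% over the genome. The part of uniqueness in the density of peaks was not tested.

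**Figure D2:**
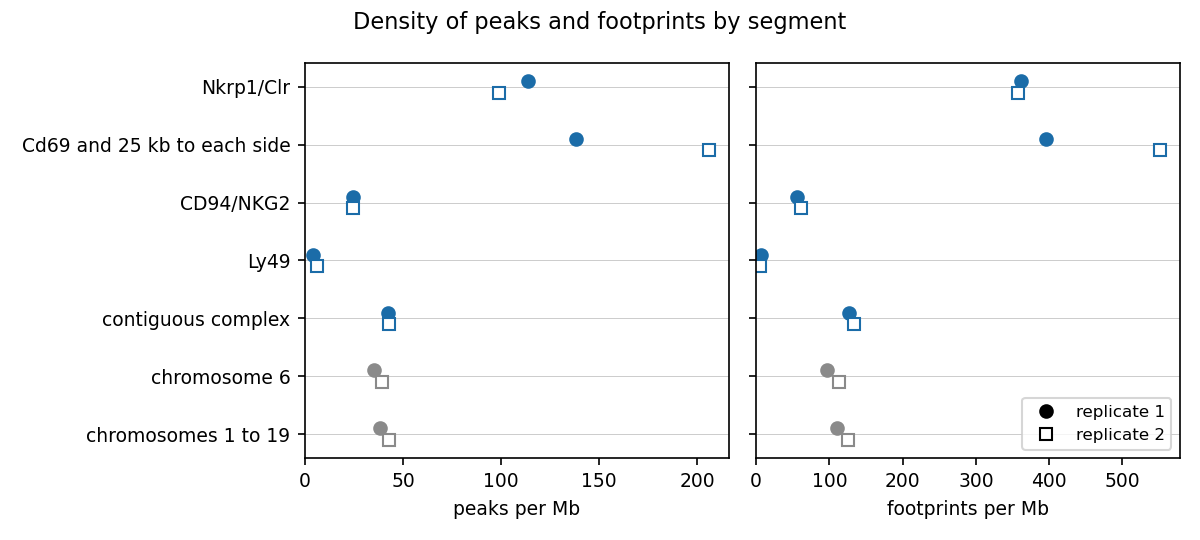
Peaks per Mb (left) and footprints per Mb (right) for segments of the complex and for the whole complex (blue), and for chromosome 6 and chromosomes 1 to 19 (grey), with filled circles for replicate 1 and open squares for replicate 2. The Nkrp1 and Clr genes (114 and 98.7 peaks per Mb) and the surroundings of Cd69 (138 and 206) lie far above the Ly49 genes (4.24 and 6.35).

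The Ly49 end of the complex held the longest stretches without a peak in either replicate. A stretch of 373.2 kb lay between Klra1 and Klra2, and another of 323.9 kb ended with Klra2, the last gene of the complex. Klra10 and Klra3 lay in a stretch of 149.0 kb, and Klra17 and Klra5 lay in 1 of 124.5 kb. Outside the Ly49 genes, Klri1 and Klri2 lay in a stretch of 112.5 kb, and Clec2h and Klrb1 in 1 of 105.6 kb. Between Klra1 and Klra2, 49.6% of 32-base words were unique.

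All of the 10 strongest shared peaks lay in 4 short stretches. When peaks up to 12.5 kb apart were joined, 4 stretches of 131.6 kb in all (4.99% of the complex) held 56 of 112 peaks in replicate 1 and 58 of 113 in replicate 2. They carried 70.6% and 71.7% of the summed strength of the complex, whose peaks covered 21683 and 24871 bp. These 4 were the joined stretches with the highest summed strength in both replicates, so a large share follows in part from the choice. The same share was not taken for other regions of the genome. The promoter peaks of Clec2i and Clec2d lay outside these stretches. The first stretch lay between Klrb1 and Klrb1c (chr6:128753941-128773748, 11 and 12 peaks) and contained peaks 2, 7 and 8. The second lay between Klrb1c and Klrb1b (chr6:128789828-128808820, 13 and 10 peaks), contained peak 1, and fell within the long gene model Gm44511. The third lay between Klrb1b and Clec2i (chr6:128833116-128869340, 13 peaks in each replicate) and contained peaks 4, 5, 6 and 9. The fourth spanned Cd69 and part of the long non-coding RNA gene 2310001H17Rik (chr6:129228981-129285498, 19 and 23 peaks) and contained peaks 3 and 10.

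**Figure D3:**
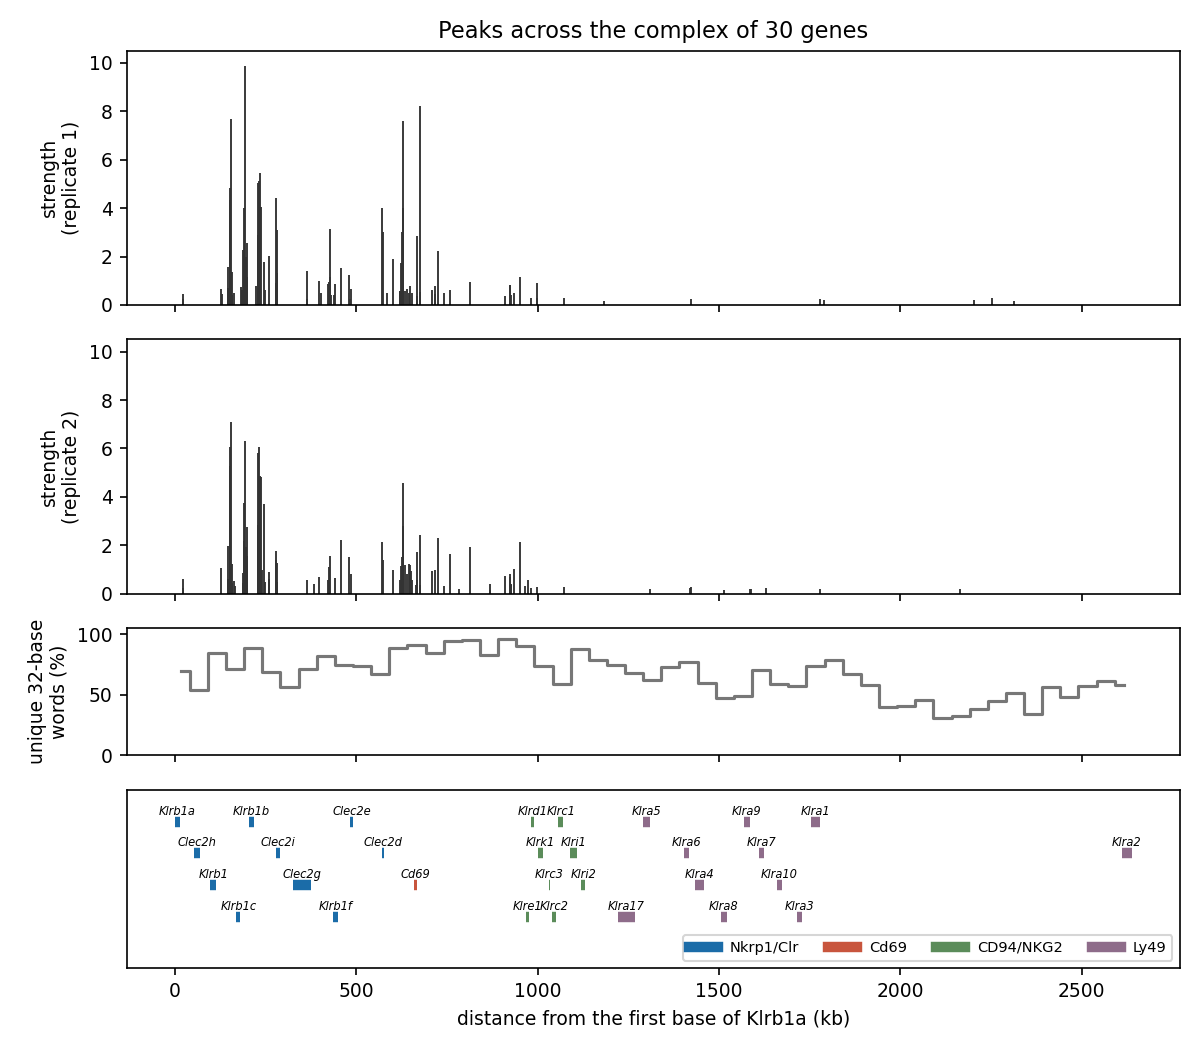
Strength of each peak in replicate 1 and in replicate 2 (upper panels, authors' signal), the share of 32-base words that are unique in the genome per 50 kb (grey line), and the position of the 30 genes coloured by family (lowest panel), against distance from the first base of Klrb1a in kb. The tall peaks, up to 9.88 in replicate 1 and 7.09 in replicate 2, lie among the Nkrp1 and Clr genes and around Cd69, and the peaks of the Ly49 segment reach 0.296 at most.

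Peak 1 had strengths of 9.88 in replicate 1 and 6.32 in replicate 2, at percentiles 95.2 and 96.7, and lay 14460 bp upstream of the Klrb1c TSS. Peak 2 had strengths of 7.67 and 7.09, at percentiles 93.3 and 97.5, and lay beyond the 3' end of Klrb1c, 24301 bp from its TSS. Both exceeded the promoter peaks of all 33 genes in both replicates. Peaks 4, 5, 6 and 9 lay 12570 to 19050 bp upstream of Klrb1b, with strengths of 4.03 to 5.44 in replicate 1 and 4.80 to 6.08 in replicate 2. Peaks 7 and 8 lay in the same gap as peak 2, with strengths of 4.32 and 4.82 in replicate 1 and of 6.05 and 5.29 in replicate 2.

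The strongest peaks near Cd69 lay on either side of the gene. Peak 10, 9065 bp upstream of the Cd69 TSS, had a strength of 8.22 in replicate 1 and of 2.41 in replicate 2, at percentiles 93.8 and 85.4. Peak 3, 37206 bp from the TSS on the downstream side and within 2310001H17Rik, had strengths of 7.60 and 4.58, at percentiles 93.3 and 93.7. Both were stronger than the Cd69 promoter peak in the same replicate. Peak 10 held matches to RUNX (TGTGGT), ETS (GGAAGT), TCF/LEF (CTTTGA) and E-box (CAGCTG) letters, and none of these had a base inside footprints of both replicates. A footprint of 25 bases in replicate 1 (chr6:129284630-129284654) covered the RUNX and ETS matches in full, and replicate 2 had no footprint there.

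Klrb1c and Klrb1b combined closed promoters with some of the densest distal peaks of the genome. Peaks over 500 bp from every protein-coding TSS were counted as distal, per 100 kb of gene and 25 kb to each side. Klrb1c had 39.5 in replicate 1 and 36.2 in replicate 2, and Klrb1b had 36.7 and 30.3. By the mean of both replicates, 55 of 21701 genes (0.25%) were at least as dense as Klrb1c and 101 (0.47%) as dense as Klrb1b, each gene itself included. Cd69 had 12.05 and 17.2, and 8.7% of genes were at least as dense. The median over the 33 genes was 2.32, against 4.43 over all genes. By family it was 5.90 for the Nkrp1 and Clr genes, 1.59 for the CD94 and NKG2 genes and 0.685 for the Ly49 genes, and 8 of the 33 genes (24.2%) had no distal peak, against 12.8% of all genes. Neighbouring genes share flanks, so these values are not independent.

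The replicates agreed on which sites were open about as well here as elsewhere. Of the peaks of the complex, 76.8% in replicate 1 overlapped a peak of replicate 2 by at least 1 bp (95% Wilson interval 68.2% to 83.6%), and 73.5% the other way (64.6% to 80.7%). Over all peaks these shares were 75.2% and 66.4%. Footprints of the complex were shared in 49.9% and 49.3% of cases, and over all footprints in 50.8% and 45.5%. Strengths of the 76 peaks that overlapped one to one had a Spearman rho of 0.858, a description across sites of the same 2 libraries.

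The ratio of strengths between the replicates was compared with that over the genome. The median log2 ratio of replicate 1 over replicate 2 was 0.04 over the 76 peaks and 0.25 over all 64454 peaks paired in the genome. It was 0.54 over the 14 paired peaks of the stretch around Cd69. In the 3 stretches near Klrb1c and Klrb1b it was 0.04 (10 pairs), 0.07 (8 pairs) and -0.09 (8 pairs). The Cd69 stretch thus lay above the median of the genome and these 3 below it, without a test. In the genome, paired peaks within 500 bp of a TSS had a median of 0.52 and the others 0.14. The promoter peaks of Clec2i, Clec2d and Cd69 also ranked higher in replicate 1 than in replicate 2. With 1 library per animal, differences between animals and between libraries cannot be told apart.

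**Figure D4:**
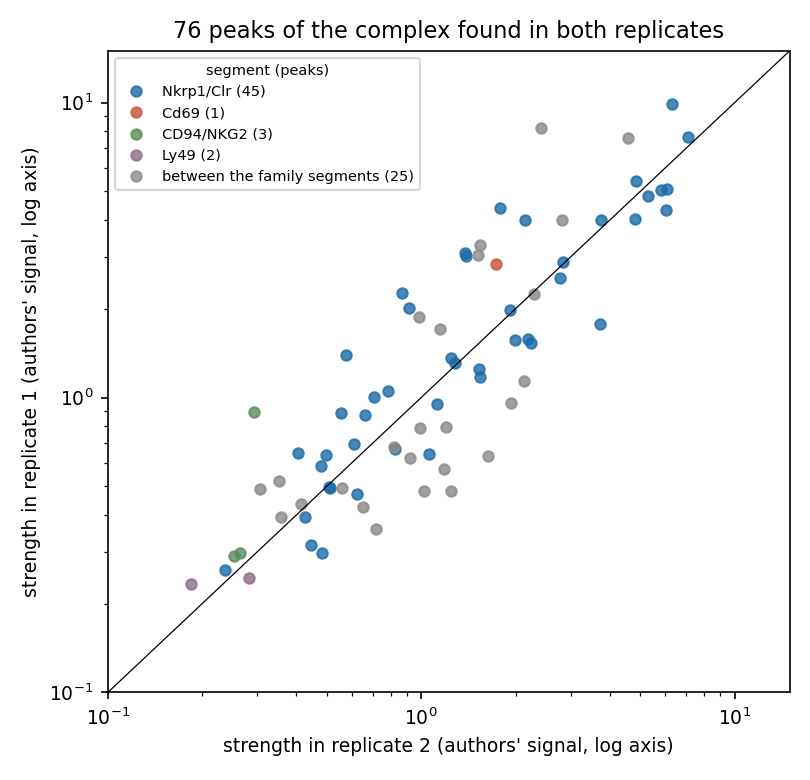
Strength in replicate 1 (y axis) against strength in replicate 2 (x axis) of the 76 peaks of the complex that overlapped one to one, on log axes, coloured by segment, with the line of equal strength. Most Nkrp1 and Clr peaks follow the line, and peak 10 upstream of Cd69, at 8.22 in replicate 1 and 2.41 in replicate 2, lies far above it.

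Most peaks of the complex lay away from genes' starts. Only 12 of 112 peaks in replicate 1 and 13 of 113 in replicate 2 lay within 500 bp of a protein-coding TSS (10.7% and 11.5%), against 21.6% and 19.1% of all peaks. Between genes lay 72 and 74 of them, and 32 in each replicate lay in introns.

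Short motifs were counted in windows reaching 100 bp to each side of the peak midpoint, on both strands, and a match describes letters and not binding. The RUNX letters TGTGGT were in 27.7% of peaks of the complex in replicate 1 (95% Wilson interval 20.2% to 36.6%) and in 25.7% in replicate 2 (18.5% to 34.4%), against 18.9% and 17.5% of all peaks. RUNX proteins act in T cell and NK cell development. Among peaks over 500 bp from a TSS, the shares were 27.0% (19.3% to 36.4%) and 26.0% (18.4% to 35.4%), against 21.9% and 19.8% of all such peaks. Within that class the lower bound lay below the share over all such peaks in both replicates.

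The T-box letters GGTGTGA were in 6.25% and 6.19% of peaks of the complex, against 3.41% and 3.13% of all peaks. The NFAT letters TGGAAA were in 16.1% and 18.6%, against 12.4% and 14.0%. The TCF/LEF letters CTTTGA, at 13.4% and 15% against 13.3% and 13.1%, were the last of the 4 motifs of 12 that were above all peaks in both replicates. The intervals of these 3 included the share over all peaks in both replicates, with lower bounds of 3.06% and 3.03% for T-box and 10.4% and 12.5% for NFAT. The SP/KLF letters were rarer, at 11.6% and 9.73% against 20.4% and 17.0%. Among peaks over 500 bp from a TSS they were in 11% and 9%, against 11.4% and 8.91%. The GATA letters AGATAA and the AP-1 letters TGANTCA did not lie on the same side of all peaks in both replicates (5.36% and 7.96% against 6.20% and 7.08% for GATA, 5.36% and 11.5% against 5.75% and 5.77% for AP-1).

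**Figure D5:**
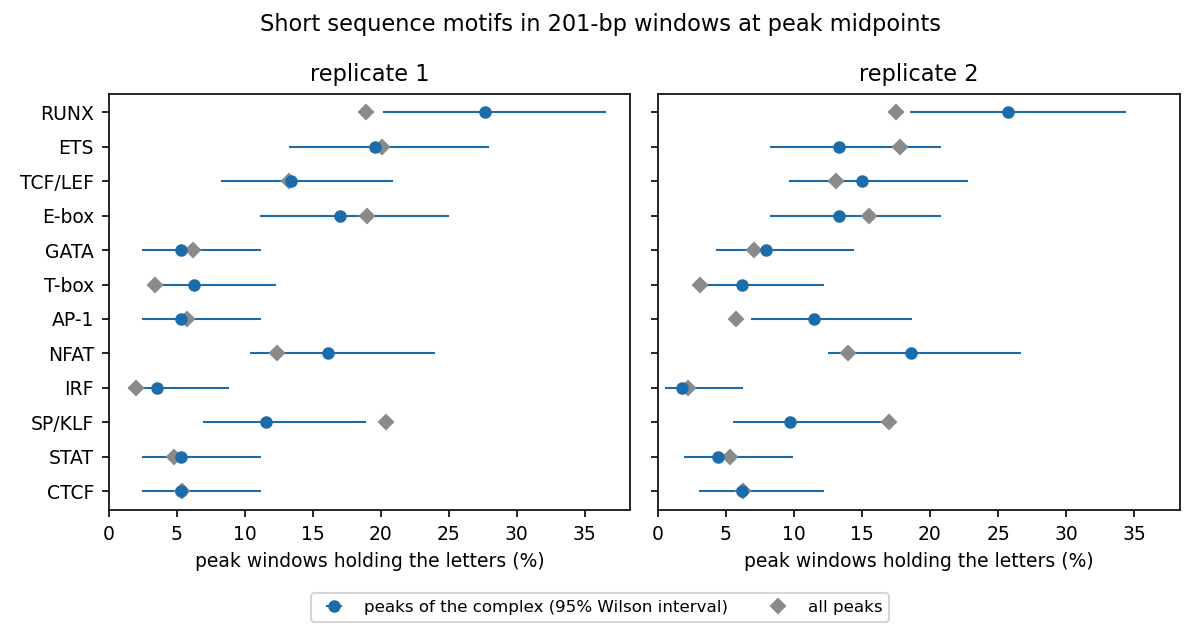
Share of windows (100 bp to each side of the peak midpoint) that hold each motif (x axis, in percent) in peaks of the complex (blue circles with 95% Wilson intervals) and in all peaks (grey diamonds), for replicate 1 (left) and replicate 2 (right). RUNX letters stand at 27.7% and 25.7% in the complex, to the right of all peaks at 18.9% and 17.5%. Among peaks over 500 bp from a TSS, which are not drawn, they stand at 27.0% and 26.0% against 21.9% and 19.8%. There the interval includes the share over all such peaks in both replicates.

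Other genes of the same pathway were read beside the 58.6% of all genes that were open. These lists mix promoters of low and high CpG ratio, and 21.1% of genes with a ratio under 0.5 were open. Of 13 adaptor and signalling genes, 10 had an open promoter (76.9%), among them Hcst (DAP10, the adaptor of NKG2D; strengths 1.92 and 1.54), the kinase genes Zap70 (5.35 and 2.07) and Syk (6.48 and 2.65). Tyrobp (DAP12) and Fcer1g, adaptors of activating NK receptors, had no promoter peak in either replicate, and Sh2d1b1 had 1 in replicate 2 only. Of 8 ligand genes outside chromosome 6 families, 5 were open (62.5%), near the share over all genes, including H2-D1 (11.8 and 8.88), H2-K1 (2.97 and 2.11), which encode classical MHC class I, and H2-T23 (3.50 and 2.26), which encodes Qa-1. Raet1e, H60b and H60c were closed. All 10 transcription factors known for killer receptor genes were open. All but Runx3 and Id2 had a CpG ratio above 0.5, where more than 58.6% of all genes were open, so the full count is not a result about the factors. The lowest of the 10 factors by percentile in replicate 1 were Eomes (0.670 and 0.898), Zbtb16 (0.826 and 0.530) and Tbx21 (0.930 and 0.564). The highest was Ets1 (14.95 and 9.54).

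Markers of the cell types were read in the same way. All 12 thymocyte marker genes were open, for example Cd3g (18.5 and 4.93) and Lck (17.3 and 4.99), and all 6 hepatocyte genes, which served as a check, were closed. The hepatocyte genes had CpG ratios of 0.135 to 0.346. Of all genes with a ratio under 0.5, 21.1% were open, so closed is the usual state there and the check is weak. Of 14 NK and innate lymphocyte markers 8 were open (57.1%), beside 58.6% of all genes. Strengths of the open ones in replicate 1 ran from 0.670 for Eomes to 6.39 for Prf1. All of these markers but Eomes and Tbx21 had a CpG ratio under 0.5, a class in which 21.1% of all genes were open. Gzma, Prf1, Itga2, Il2rb, Cd160 and Fasl of that class were open, and the difference from that share was not tested. Ncr1, Nkg7, Gzmb, Cd244a, Ccl5 and S1pr5 had no promoter peak in either replicate. Several of the 8 open markers are also used by T cells, and the share of NK cells in the tissue was not measured.

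Other genes inside the complex were read in the same way. Of 13 protein-coding genes that lie among the 30 but are not killer lectin receptor genes by the rule, 3 were open. These were BC035044 (1.31 and 1.28), Gabarapl1, which acts in autophagy (0.815 and 0.823), and the myeloid receptor gene Clec12a (0.488 and 0.305). Among the 12 with a CpG ratio under 0.5, 2 were open, against 21.1% of all such genes, so the count is near the background. Clec9a, Clec1a, Clec1b, Clec12b and Olr1, further lectin-like receptors of the same region, had no promoter peak in either replicate.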

How the data were processed

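DNase-seq peaks, footprints and a track of false discovery rates were read for 2 thymus samples, labelled biological replicates 1 and 2. They were taken as 2 mice (the animal numbers differ, the donor identifier is the same). Per the deposited listings, each file was made from that sample's own mm10 alignments, without pooling. Aligner, callers, settings and the handling of CAST alleles: not given in the sources used here. As deposited by the authors, the signal of a peak is a whole multiple of 1 step per sample by an unstated factor, so strengths were ranked within a replicate and the read depth is unknown. In the deposited track the p-value column holds false discovery rates (q-values), listed only under 0.05. In the footprint files it is constant, so only positions were used. The longer of the 2 deposited peak lists was used.

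Annotation was GENCODE M21 basic and sequence GRCm38.p6. After 27 duplicated symbols were left out, 21701 genes on chromosomes 1 to 19 and X remained. A run of members ended at a gap over 2 Mb. Unique words are 32-base words counted on both strands of the genome. Alignments used Biopython 1.88 and edlib 1.3.9.post1, overlaps bedtools 2.31.1, and the rest Python 3.11.15 with numpy 2.4.6 and pandas 2.3.3. Counting steps were tested on simulated data. Intervals cover counting error only. With 1 group of 2 mice no test was made, and counts are set beside the same over all genes or peaks. The members, lists and settings were chosen with earlier results of these data known. The text names every member, the 10 strongest shared peaks, other open genes of the complex and genes of the lists. The alignment of peaks, the joining of peaks and the Klra1 comparison were added after values were seen. Alternatives were a stricter list, wider windows, other overlaps and single replicates.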

Additional observations from a re-analysis of the deposited data

How the results depend on the processing

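With 6 open promoters among the 33 genes, the stricter peak list left 3 (Clec2i, Clec2d and Cd69, with 54.7% of all genes open), a window of 2000 bp gave 8 (adding Clec2g and Klrc1, with 62.4%), the outermost TSS alone 6 (with 56.1%), the false discovery rate track 7, and single replicates 6 to 8. The mean of 42.6 peaks per Mb in the complex became 28.43 with the stricter list, 39.73 without Cd69 and 25 kb to each side, 42.1 over the whole span from Klrg2 to Klra2, and 61.32 when the complex was ended at Klra1, a setting chosen after seeing the data. The stricter list is shorter over the whole genome as well. It kept 74 of 112 and 76 of 113 peaks in the complex, and 64927 of 97051 and 72884 of 108010 of all peaks. Shared peaks averaged 75.12% and fell to 51.56% when 50% of both peaks had to overlap. Footprints per Mb averaged 130.0 and came to 108.8 when only those inside peaks were counted. The other 17 settings moved their result by less than the spread (standard deviation) between replicates or, for counts, by at most 1.5 times. For single replicates this outcome was fixed in advance for peaks and footprints per Mb, and nearly so for distal peaks. Each replicate lies nearer to the mean of both than their standard deviation, so these settings cannot show whether the results are stable. Single replicates gave 42.45 to 42.83 peaks per Mb, 127.0 to 133.0 footprints per Mb and medians of 1.588 to 2.99 distal peaks per 100 kb. Motifs above all peaks in both replicates numbered 4, and 5 with whole peaks, 6 with shared peaks only and 3 with peaks over 500 bp from a TSS, a setting chosen after seeing the data. No paired analysis was possible because there is 1 group. Depth is unknown, so an unlisted promoter is one not called at an unknown depth, and weak peaks near the lowest strengths are the least certain.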

Other observations

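Peaks holding the CTCF consensus, the motif of the factor that bounds chromatin loops, were 6 of 112 in replicate 1 (5.36%) and 7 of 113 in replicate 2 (6.19%), against 5.39% and 6.23% of all peaks. In replicate 1 all 6 overlapped a peak of the other replicate, and in replicate 2 all but chr6:128850064-128850240 did. Over all peaks of the complex 76.8% and 73.5% did. Of the 6 in replicate 1, a pair lay near Klrb1b, at chr6:128808641-128808800 (strengths 2.54 and 2.76) and chr6:128854001-128854480 (1.78 and 3.71). Of the other 4, 1 lay beyond the 3' end of Cd69 and 3 lay between Cd69 and Klre1, of which chr6:129559401-129559580, 18325 bp from the Klre1 TSS, was the strongest (1.14 and 2.13). No peak with an exact match to the consensus was found inside the CD94 and NKG2 or the Ly49 segment in either replicate. In the CD94 and NKG2 segment the strongest peak of replicate 1 lay 14132 bp from the Klrk1 TSS (strength 0.893, and 0.294 in replicate 2), and that of replicate 2 lay in an intron of Klre1 (0.547) and had no overlapping peak in replicate 1.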
